A study of Mus musculus with 6 samples.

Results

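The TRIM genes encode the tripartite motif family, most of whose proteins are ubiquitin ligases. Members were taken by symbol: every gene whose name in the deposited gene list is Trim followed by a number and at most 1 letter. This gave 68 of the 31053 genes measured, and all 68 matched the mouse gene annotation. They were followed in nuclei of mouse hippocampus after an inhibitor of class I histone deacetylases, CI-994 (HDACi in the labels), with Trim37, Trim9 and Trim2 as contrasting members. The series holds 6 single-nucleus libraries. Each pools tissue of 5 C57BL/6J males (strain label C57BL/6), 12 weeks old, for which the labels give no transgene or deletion. An intraperitoneal dose of CI-994 (30 mg/kg) or of its vehicle (dimethyl sulfoxide, Kolliphor and saline) was given 1 h ahead of a chamber visit, and tissue was taken 1 h after the visit. For contextual fear conditioning (CFC) the visit included 2 foot shocks of 0.2 mA, and for Context it had equal length and no shock. The groups were Veh-CFC (2 libraries), HDACi-CFC (2), Veh-Context (1) and HDACi-Context (1). All mice of a cage had the same exposure, so exposure and cage cannot be told apart. The title and treatment of the Veh-Context library say vehicle and its description says HDACi, so it is called the library labelled Veh-Context throughout.

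A typical TRIM protein carries a RING finger, a B-box and a coiled coil, followed by a C-terminal part that sets its partners. Not every member has all of these parts. The RING finger recruits an E2 enzyme charged with ubiquitin, and the C-terminal part (NHL repeats, a PRY-SPRY fold, a COS box with FN3 and SPRY, a MATH domain, or a PHD finger with a bromodomain) holds the substrate or localizes the protein. In neurons, TRIM proteins are known for work on the axonal cytoskeleton and the postsynaptic scaffold, and in immune cells for interferon-linked defence against viruses. Trim37, the MATH member, is a ligase of centrosomes and peroxisomes that is mutated in mulibrey nanism. Trim9 is a brain-enriched COS-FN3-SPRY member that binds the netrin receptor DCC and SNAP25. Trim2 is an NHL member that ubiquitinates neurofilament light chain and is mutated in an inherited axonal neuropathy.

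The start regions of the 3 contrasting genes are shown because their levels moved in different directions after the drug. Each sequence is the 250 bases before the RefSeq transcript start (build GRCm38.p6), 5′ to 3′ on the strand of the gene, with the GC box GGGCGG or its reverse complement CCGCCC in capitals.
Trim37, chr11:87126825-87127074, plus strand: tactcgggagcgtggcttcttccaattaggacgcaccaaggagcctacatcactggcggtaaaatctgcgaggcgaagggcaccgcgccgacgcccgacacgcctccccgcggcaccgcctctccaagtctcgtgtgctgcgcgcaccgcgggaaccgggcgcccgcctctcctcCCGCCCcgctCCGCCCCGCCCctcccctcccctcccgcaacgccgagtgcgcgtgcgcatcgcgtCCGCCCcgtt
Trim9, chr12:70347615-70347864, minus strand: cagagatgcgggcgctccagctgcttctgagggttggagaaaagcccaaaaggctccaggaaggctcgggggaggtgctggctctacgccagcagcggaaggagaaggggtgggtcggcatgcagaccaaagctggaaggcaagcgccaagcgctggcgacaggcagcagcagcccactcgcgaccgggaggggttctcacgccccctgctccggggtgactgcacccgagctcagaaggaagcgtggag
Trim2, chr3:84304776-84305025, minus strand: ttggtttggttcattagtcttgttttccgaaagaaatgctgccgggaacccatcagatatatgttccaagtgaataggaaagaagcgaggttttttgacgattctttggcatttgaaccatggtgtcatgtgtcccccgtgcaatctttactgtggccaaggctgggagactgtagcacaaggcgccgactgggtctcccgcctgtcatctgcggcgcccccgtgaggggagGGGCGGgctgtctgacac
The Trim37 window held 37 CpG dinucleotides and 4 GC boxes, of which 1 pair shares a base. Trim9 held 16 CpG dinucleotides and 0 GC boxes, and Trim2 held 12 and 1. RefSeq lists 5 start windows for Trim2, and the transcript start of the 1 shown lies 2102 bases inside the annotated gene. Of the 68 members 53 matched a RefSeq window, and 18 of these (34.0%) held a GC box on either strand against 32.7% of all 32851 windows. The cyclic AMP response element core TGACG was in 10 of 53 (18.9%, against 17.8% of all windows) and the E-box CACGTG in 3 (5.66%, against 6.02%). These motif shares of the members thus lay near those of all windows, and a match is a description of letters and not a binding site.

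After filtering, 26839 nuclei remained of 30323 barcodes, and between 1 and 11 barcodes were shared by any pair of libraries. Library totals ran from 24508202 to 45570814 UMIs (unique molecular identifiers, each standing for 1 captured RNA molecule). The median nucleus of the 4 CFC libraries held 5368 to 6808 UMIs, with fewer genes in HDACi-CFC (2218 and 2466) than in Veh-CFC (2772 and 3035). Clusters were named from marker genes and 11 classes had at least 30 nuclei in every library. The tissue label reads hippocampus (DG), yet CA1-like, CA3-like and subicular or cortical-like nuclei were present beside DG granule-like nuclei. The sums per library ranged from 6849380 to 11664038 UMIs in DG granule-like nuclei, from 267651 to 487957 in microglia-like and from 106782 to 143664 in Cajal-Retzius-like nuclei, so small changes were less detectable in the latter classes. Subicular or cortical-like nuclei numbered 67 in HDACi-CFC replicate 1 and 161 to 181 in the other 3 CFC libraries.

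In the 4 CFC libraries 67 of the 68 members had at least 1 UMI and Trim61 had 0 in all of them. A filter on low counts left 42 members tested in at least 1 class and 26 in none. In DG granule-like nuclei 32 members were tested. The other 36 had at most 32 UMIs over the 4 libraries.

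The TRIM genes were spread unevenly over the cell classes of vehicle-treated, conditioned mice. Over the 2 Veh-CFC libraries 40 of the 42 members tested differed between classes (edgeR quasi-likelihood test, Benjamini-Hochberg adjusted p under 0.05), against 86% of the 15015 genes tested. The exceptions were Trim11 (adjusted p = 0.1) and Trim39 (adjusted p = 0.316). Trim11 was still called above the mean of the other classes in the separate test of microglia-like nuclei. Levels below are CPM (UMIs of a gene relative to the scaled UMI total of its library and class) after 1 scaling across all classes, so they differ from the CPM of the drug comparison, and they are compared only within a gene. In microglia-like nuclei 20 members lay above the mean of the other classes (23.1% of all genes did so), and in DG granule-like nuclei 9 did (30.5% of all genes). The low-count filter could pass a gene on its level in 1 class alone. Members low elsewhere, such as Trim30a and Trim14, may have been tested only because of microglia-like nuclei. Their being higher there was then partly fixed by the filter. The same limit holds for members named below that were low outside 1 or a few other classes. The shares of all genes rest on the same filter.

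Among the microglia-high members were interferon-linked genes. Trim30a, of a cluster induced by interferon, stood at 98.2 and 112 CPM in microglia-like nuclei of the 2 libraries, and its mean in each of the other 10 classes lay between 1.22 and 6.10. Trim12a, a relative of the retroviral restriction factor Trim5, stood at 107 and 97.7 in microglia-like and at 30.2 and 29.3 in astrocyte-like nuclei. Trim14, a mitochondrial adaptor of antiviral signalling, stood at 101 and 105, and its mean elsewhere was at most 7.37. In each of these genes the 2 microglia-like values lay above every other class. Trim5 with Trim12a and Trim12c, the Trim30 genes and the Trim34 genes are groups of related genes on chromosome 7. Likeness within these groups was not measured, so how their reads were divided is uncertain. The called member with the largest ratio in microglia-like nuclei was Trim56, a regulator of innate DNA sensing, but it rested on 14 and 11 UMIs (39.3 and 19.5 CPM). The largest ratio in astrocyte-like nuclei was that of Trim12c, at 21.3 and 21.6 CPM from 12 and 14 UMIs.

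Oligodendrocyte-like nuclei were marked by Trim59, a membrane-anchored member of the endoplasmic reticulum. It stood at 273 and 269 CPM there, and its mean elsewhere was between 3.14 and 21.5. Its log2 ratio to the mean of the other classes was 5.48 ± 0.13 (SE, n = 2 libraries), with adjusted p = 1.36e-79. Trim36, a microtubule-associated relative of Trim9, was at 79.8 and 82.7 in oligodendrocyte-like, 39.3 and 44.4 in microglia-like and 0.471 and 0.572 in DG granule-like nuclei. In Cajal-Retzius-like nuclei it had the largest ratio of the members called, at 22.1 and 34.1 CPM from 3 and 5 UMIs.

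Some members of low level were highest in a few neuronal or progenitor classes. Trim67, Trim71 and Trim66 could pass the low-count filter on those classes alone, so their leading ratios were partly fixed by it. Trim67, the nearest relative of Trim9, led the ratios in 3 classes: immature neuron-like (26.9 and 25.8 CPM), OPC-like (oligodendrocyte precursors, 31.7 and 18.4) and interneuron-like nuclei (12.1 and 15.3). Its mean was at most 2.43 in the other 8 classes. Trim71, the RNA-binding stem cell factor also called Lin41, led in CA1-like (11.5 and 13.4), CA3-like (6.48 and 14.0) and DG granule-like nuclei (4.39 and 6.01), each a low level. Trim66, a chromatin reader, led in subicular or cortical-like nuclei at 8.17 and 11.4, although its level was higher in interneuron-like nuclei (14.5 and 12.7).

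Of the 3 contrasting genes, Trim9 was highest in astrocyte-like nuclei (522 and 561 CPM). CA1-like (488 and 427) and DG granule-like nuclei (455 and 432) came next, with ranges that overlapped, and microglia-like (28.0 and 33.7) and oligodendrocyte-like nuclei (22.1 and 26.7) were lowest. Trim2 was highest in CA1-like nuclei (680 and 677), followed by oligodendrocyte-like (610 and 576) and DG granule-like nuclei (578 and 543), whose ranges overlapped. It was lowest in microglia-like (140 and 133) and OPC-like nuclei (129 and 129). Trim37 was highest in subicular or cortical-like (197 and 189) and CA1-like nuclei (177 and 196), which overlapped, and stood at 126 and 134 in DG granule-like nuclei. It was lowest in oligodendrocyte-like (54.8 and 46.5) and microglia-like nuclei (50.5 and 33.7), which also overlapped. Trim46, which bundles microtubules at the axon initial segment, followed the neurons: its mean was 64.2 to 115 in the 7 neuronal classes and 7.24 to 37.8 in the 4 glial classes.

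**Figure D1:**
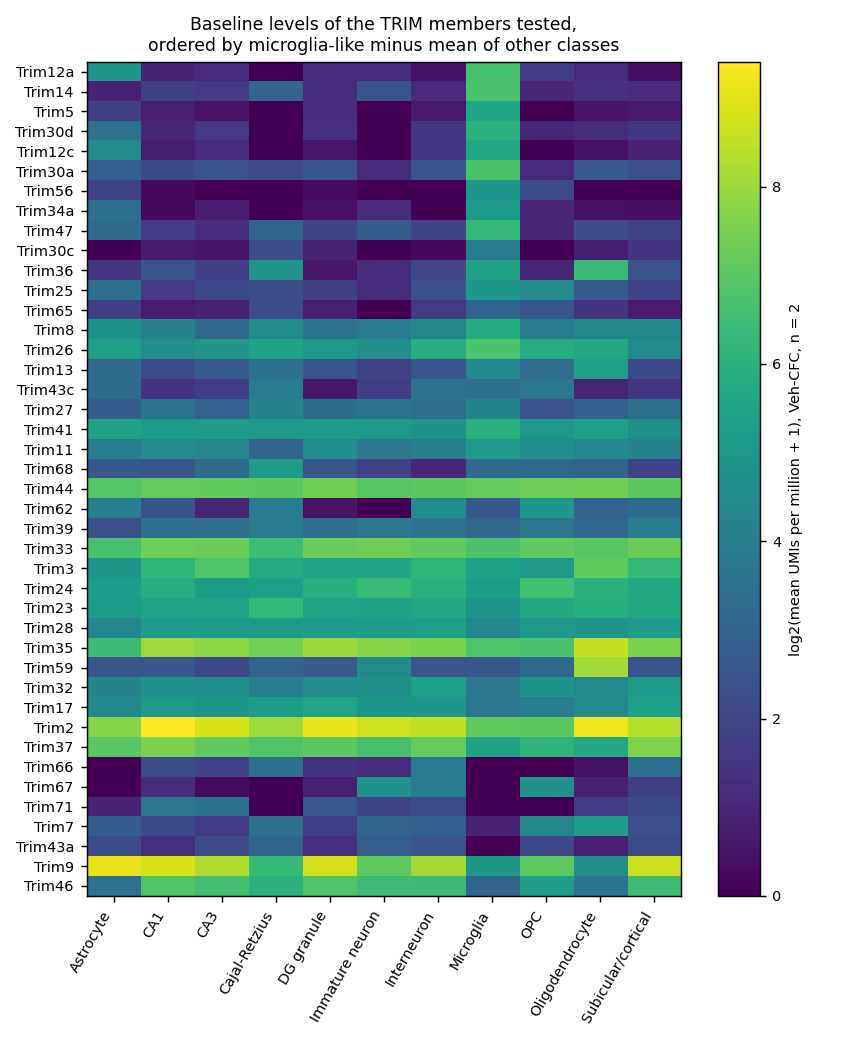
Levels of the 42 members tested at baseline in 11 nucleus classes, as log2 of the mean CPM plus 1 over the 2 Veh-CFC libraries (colour), with members in rows ordered by microglia-like minus the mean of the other classes. The upper rows are bright in the microglia column, Trim59 is bright in the oligodendrocyte column, and Trim46 is bright in the neuronal columns.

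The drug comparison after conditioning asks which transcripts the inhibitor changed in each cell type 1 h after learning. In DG granule-like nuclei 19 of the 32 members tested changed (59.4%): 8 were higher and 11 were lower in HDACi-CFC than in Veh-CFC (edgeR quasi-likelihood test, adjusted p under 0.05). Over all 15593 genes tested in that class 23.8% were higher and 26.6% were lower. The median log2 fold change was -0.11 over the members and 0.01 over all genes. In each of the 19 the 2 HDACi-CFC libraries lay on 1 side of the 2 Veh-CFC libraries. The fits set the typical gene to no change. Scaling to library size instead moved the median of all genes by -0.35 (log2) and gave 5 members higher and 15 lower, and scaling to the number of nuclei moved it by -0.49 and gave 2 higher and 16 lower.

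Trim37 stood at 100 and 106 CPM in the Veh-CFC libraries and 22.3 and 21.9 in the HDACi-CFC libraries. The Veh-CFC values were all above the HDACi-CFC values, with little spread inside either group. It fell by 2.22 ± 0.10 on the log2 scale (SE, n = 2 against 2), a 4.67-fold difference, with adjusted p = 7.89e-14. Trim37, Trim9 and Trim2 were picked for this account with results of these data known, so their tests describe them and are no independent evidence.

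The COS-FN3-SPRY members moved apart. Trim9 stood at 362 and 342 CPM in Veh-CFC and at 1026 and 1017 in HDACi-CFC. The groups were far apart, and Trim9 rose by 1.54 ± 0.06 (log2; 2.90-fold; adjusted p = 2.34e-14). Trim46, also of the axon, was lower in both HDACi-CFC libraries (49.4 and 51.7, against 89.9 and 85.4) and fell by 0.79 ± 0.09 (adjusted p = 1.52e-07). Trim36 and Trim67 had too few UMIs to be tested in DG granule-like nuclei.

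All 4 NHL members changed, 3 up and 1 down. In DG granule-like nuclei 23.8% of all genes were higher and 26.6% lower. The subfamily and partner counts here and below were not tested against those shares. Trim2 stood at 459 and 430 CPM in Veh-CFC and at 985 and 964 in HDACi-CFC, so the groups did not overlap. It rose by 1.13 ± 0.06 (2.19-fold; adjusted p = 1.47e-12). Trim71 was low in all libraries (3.49 and 4.76, then 9.14 and 8.40) and rose by 1.04 ± 0.23 (adjusted p = 5.21e-04), a call lost per nucleus (adjusted p = 0.104). Trim32, which is mutated in a limb-girdle muscular dystrophy, rose by 0.63 ± 0.14 (adjusted p = 5.23e-04), but to 0.26 with library-size scaling and 0.12 per nucleus, neither of which was called. Trim3, a ligase of the postsynaptic scaffold protein GKAP, went the other way: it stood at 36.4 and 34.3 in Veh-CFC and at 21.9 and 23.0 in HDACi-CFC. It fell by 0.64 ± 0.12 (adjusted p = 1.11e-04).

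Of the 4 chromatin-bound PHD and bromodomain members 3 fell and Trim66 was not called. Trim24, a coregulator of nuclear receptors, stood at 45.3 and 47.6 CPM in Veh-CFC and at 16.8 and 16.5 in HDACi-CFC, with no overlap. It fell by 1.49 ± 0.12 (adjusted p = 6.53e-10). Trim33, a regulator of Smad4, fell by 0.47 ± 0.08 from 123 and 120 to 91.6 and 84.0 (adjusted p = 4.40e-05). Trim28, the corepressor KAP1 of zinc finger proteins, fell by 0.45 ± 0.13 (29.2 and 27.7, then 22.4 and 19.5; adjusted p = 6.62e-03), and this call was lost without Veh-CFC replicate 1 (adjusted p = 0.0523) or HDACi-CFC replicate 2 (0.0884) and with DESeq2 (0.0713). Trim66 rested on 12 and 13 UMIs in Veh-CFC against 1 and 18 in HDACi-CFC, so the groups overlapped (adjusted p = 0.944). Its fitted log2 fold change of 0.06 ± 0.56 has the opposite sign to the ratio of the group means (1.24 CPM, then 1.06), and no direction is read from it.

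Of the membrane-anchored members, Trim59 had the largest fall of all in DG granule-like nuclei, at a low level. Its 4.86 and 3.93 CPM in Veh-CFC became 0.499 and 0.872 in HDACi-CFC, where the groups did not overlap. The log2 fold change was -2.56 ± 0.40 (adjusted p = 1.15e-05), with values from -3.07 to -1.93 over the alternatives run. With its low HDACi-CFC counts Trim59 could pass the low-count filter on the Veh-CFC libraries alone, so its direction was partly fixed by the filter. With no such filter the call stayed. Trim13, the other such member, had a log2 fold change of -0.32 ± 0.31 (adjusted p = 0.414).

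Of the 38 PRY-SPRY members 15 were tested in DG granule-like nuclei, 3 rose and 4 fell. Trim35 stood at 197 and 202 CPM in Veh-CFC and at 361 and 309 in HDACi-CFC, and rose by 0.74 ± 0.08 (adjusted p = 2.62e-08). Trim17, known for a part in neuronal apoptosis, rose by 0.77 ± 0.10 from 37.8 and 37.9 to 62.7 and 66.3 (adjusted p = 5.93e-07). Neither gene's groups overlapped, and per nucleus neither was called (0.24 and 0.27). Trim11 rose by 0.45 ± 0.14 (adjusted p = 0.0106), but its sign turned per nucleus (-0.05) and the call was lost without Veh-CFC replicate 2 (adjusted p = 0.11) or HDACi-CFC replicate 1 (0.063). Trim27, a transcriptional repressor also called RFP, stood at 8.11 and 6.19 in Veh-CFC and at 2.66 and 2.40 in HDACi-CFC, and fell by 1.48 ± 0.27 (adjusted p = 8.94e-05). Trim26, a regulator of antiviral signalling, fell by 1.05 ± 0.15 from 26.6 and 23.4 to 12.8 and 11.3 (adjusted p = 4.15e-06). The groups were apart in Trim27 and Trim26 alike. Trim41 fell by 0.45 ± 0.13 (27.1 and 27.2, then 19.5 and 20.1; adjusted p = 5.56e-03; 0.0641 with DESeq2). Trim39 fell by 0.67 ± 0.24 (adjusted p = 0.0227), and its call was lost without Veh-CFC replicate 1 (adjusted p = 0.139) or HDACi-CFC replicate 1 (0.137).

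Trim44, which lacks the RING finger, rose by 0.45 ± 0.08 from 139 and 123 to 179 and 178 (adjusted p = 4.87e-05). It was not called with library-size scaling (0.09; adjusted p = 0.355), and its sign turned per nucleus (-0.05). The ARF-like member Trim23, which carries its own GTPase domain, had a log2 fold change of -0.07 ± 0.11 (adjusted p = 0.627) at a mean of 35.4 and 33.8 CPM. In all, 13 of the members tested in DG granule-like nuclei were not called. Along the adjusted p, the last member inside the threshold was Trim39 (0.0227) and the first outside was Trim54 (0.113).

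**Figure D2:**
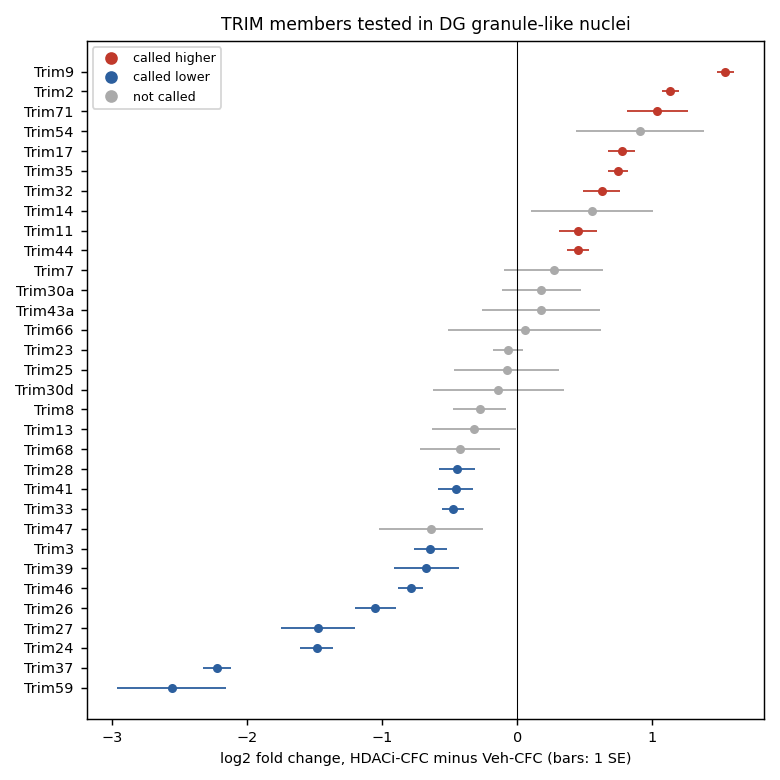
Log2 fold change of HDACi-CFC over Veh-CFC in DG granule-like nuclei for the 32 members tested (points, with bars of 1 SE), coloured by call. Trim9 and Trim2 lie at the top, and Trim59 and Trim37 lie farthest to the left.

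The genes on the sides of the 3 contrasting members gave no common direction in DG granule-like nuclei. The opposite-strand transcripts that overlap a member or start inside its printed window each moved in the direction of that member. At Trim37 (chromosome 11, 87127077 to 87220683), Ska2, a kinetochore gene that starts upstream and ends 2442 bases before Trim37, fell by 2.74 (log2; adjusted p = 1.87e-09). Gm11491, a transcript on the opposite strand whose start lies inside the window printed above, fell by 4.20 (4.12 and 1.66 CPM, then 0.166 and 0.109; adjusted p = 5.00e-05). Gm11491 could pass the low-count filter on the Veh-CFC libraries alone. For it and the overlapping transcripts below, whether the counting used strand is not given in the sources used here. On the other side Ppm1e, a phosphatase gene 6223 bases away, rose by 1.03 (adjusted p = 1.88e-12), and Rad51c was at 0.26 (adjusted p = 0.213). At Trim9 (chromosome 12, 70244533 to 70347614) the 4 nearest genes tested on its sides were not called, and the overlapping opposite-strand Gm48747 rose by 1.60 (adjusted p = 3.17e-12). At Trim2 (chromosome 3, 84160439 to 84306877) Tmem131l fell by 1.48 (adjusted p = 1.85e-08) and Gm37240 by 0.29 (adjusted p = 2.69e-03). The overlapping opposite-strand Gm6525 rose by 1.89 (adjusted p = 4.17e-04), and Mnd1 (0.01, adjusted p = 0.991) and Fbxw7 (0.12, adjusted p = 0.213) were not called.

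The direction of the enzymes that pass ubiquitin to TRIM ligases rested on the scaling. Of 18 E2 conjugating enzymes on a fixed list 16 were tested in DG granule-like nuclei, and 9 were higher and 3 lower, against the 23.8% and 26.6% of all genes given above, with a median log2 fold change of 0.27 (0.01 over all genes). Library-size scaling gave 2 higher and 6 lower, with a median of -0.09 (-0.35 over all genes), and per-nucleus scaling gave 0 higher and 5 lower, with a median of -0.23 (-0.49 over all genes). Ube2d1 rose by 0.84 and Ube2h by 0.76, while Ube2g1 fell by 0.62. Uba6, an E1 enzyme that activates ubiquitin and the related modifier FAT10, stood at 38.7 and 37.8 CPM in Veh-CFC and at 6.98 and 7.20 in HDACi-CFC and fell by 2.42 ± 0.15 (adjusted p = 7.61e-12). Of 18 known partners and substrates of TRIM proteins 7 rose and 7 fell, and 4 were higher and 9 lower with library-size scaling. The kinesin gene Kif21b rose by 2.35, and the centrosome genes Cep192 and Pcnt fell by 2.06 and 1.21. Setdb1, the methyltransferase that works with Trim28, fell by 1.18. Of the Trim2 and Trim9 partners, Nefl rose by 0.98 (adjusted p = 9.74e-08), Snap25 by 0.96 (adjusted p = 7.30e-12) and Dcc by 0.38 (adjusted p = 1.67e-05). Nefl and Dcc are named here after their values were seen. Of 6 family members with other symbols 3 were tested, and Mid1, Mid2 and Pml were not called.

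In the other 10 classes 37 of 201 member and class pairs were higher and 33 were lower. That is 18.4% and 16.4% of pairs, against 15.8% and 13.5% of all gene and class pairs. Library-size scaling gave 26 higher and 68 lower pairs and per-nucleus scaling 13 and 60, so the balance of directions rests on the scaling. Over all 11 classes 27 members were called at least once: 14 only higher, 9 only lower and 4 in both directions. As shares of the 42 members tested these are 64.3%, 33.3%, 21.4% and 9.52%. Of the 16852 genes tested in any class 69.1% were called at least once, 33.2% only higher, 26.9% only lower and 9.07% in both directions, so the members' shares of calls lay near those of all genes.

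Trim37 fell in all 11 classes, in every one with both HDACi-CFC libraries under both Veh-CFC libraries. In CA1-like nuclei it stood at 140 and 157 CPM in Veh-CFC and at 88.9 and 82.5 in HDACi-CFC, and fell by 0.80, its smallest fall (adjusted p = 3.36e-06). In immature neuron-like nuclei it stood at 116 and 129, then 6.86 and 16.4, and fell by 3.17, from 21 and 42 UMIs to 1 and 5 (adjusted p = 7.70e-04). In astrocyte-like nuclei it stood at 137 and 108, then 45.4 and 27.1, and fell by 1.83 (adjusted p = 1.08e-05). The fall in oligodendrocyte-like nuclei was 1.80 (adjusted p = 4.52e-04), in interneuron-like 1.15 (adjusted p = 4.76e-06), in subicular or cortical-like 1.09 (adjusted p = 5.80e-05) and in CA3-like nuclei 0.99 (adjusted p = 4.28e-05). The fall of 2.00 in microglia-like nuclei rested on 18 and 19 UMIs against 5 and 2 (adjusted p = 1.17e-03), the fall of 1.60 in Cajal-Retzius-like on 15 and 17 against 5 and 6 (adjusted p = 0.0332), and the fall of 1.11 in OPC-like nuclei on 27 and 35 against 12 and 10 (adjusted p = 0.0218). The Cajal-Retzius-like call was lost with any of the 4 libraries left out (adjusted p from 0.0817 to 0.3001), the microglia-like call without Veh-CFC replicate 1 (0.0832) or HDACi-CFC replicate 2 (-1.06; 0.243), and the OPC-like call without Veh-CFC replicate 2 (0.105) or HDACi-CFC replicate 2 (-0.73; 0.271). DESeq2 did not call the microglia-like (0.152) or OPC-like fall (0.235), and per nucleus the Cajal-Retzius-like fall was not called (0.0561). In immature neuron-like, microglia-like and Cajal-Retzius-like nuclei Trim37 could pass the low-count filter on the Veh-CFC libraries alone.

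Trim9 rose in 10 of the 11 classes. Its rise was 1.66 in oligodendrocyte-like nuclei, where it stood at 18.6 and 22.0 CPM in Veh-CFC and at 63.9 and 65.8 in HDACi-CFC (adjusted p = 4.78e-05). In CA1-like nuclei it stood at 387 and 341, then 860 and 817, and rose by 1.21 (adjusted p = 4.19e-09). In astrocyte-like nuclei, its highest class, it stood at 509 and 529, then 1024 and 909, and rose by 0.89 (adjusted p = 7.60e-06). The groups were apart in each of these classes. The neuronal transcript Snap25 also rose in oligodendrocyte-like (1.09) and astrocyte-like nuclei (1.07). In astrocyte-like nuclei the 5 DG granule markers summed lower after the drug (343 and 320 CPM, then 186 and 237). The part of RNA from neurons in the rises of Trim9 and Trim2 in glial classes was not tested. Per nucleus the rise was not called in 5 classes: astrocyte-like (0.39; adjusted p = 0.211), CA3-like (0.43; 0.112), interneuron-like (0.46; 0.202), microglia-like (0.66; 0.241) and OPC-like (0.30; 0.334). The microglia-like and OPC-like rises were also not called with library-size scaling (0.0503 and 0.0956) or DESeq2 (0.186 and 0.0734). In microglia-like nuclei the rise of 1.13 was lost without Veh-CFC replicate 1 (adjusted p = 0.0615) or 2 (0.0556), and in OPC-like nuclei the rise of 0.77 was lost without HDACi-CFC replicate 1 (0.0562). In Cajal-Retzius-like nuclei the groups overlapped. The log2 fold change of 0.29 there became -0.56 without HDACi-CFC replicate 1 and 1.11 without HDACi-CFC replicate 2, neither of which was called, and with marker-gated nuclei it was 1.16 and called (adjusted p = 1.15e-03).

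Trim2 rose in 8 of the 11 classes. The rise was 1.38 in immature neuron-like (adjusted p = 4.22e-04), 1.32 in astrocyte-like (adjusted p = 5.61e-07), 1.26 in oligodendrocyte-like (adjusted p = 4.42e-07) and 1.04 in CA1-like nuclei (adjusted p = 3.87e-09). It was 1.07 in subicular or cortical-like (adjusted p = 1.81e-06), 0.86 in interneuron-like (adjusted p = 7.58e-06) and 0.59 in CA3-like nuclei (adjusted p = 8.10e-05). Per nucleus it was not called in interneuron-like (0.37; adjusted p = 0.314) or CA3-like nuclei (0.19; 0.52). It was not called in Cajal-Retzius-like (0.91), OPC-like (0.52) or microglia-like nuclei (-0.13), and the sign in microglia-like nuclei turned when doublets were kept (0.79). Other settings did call the rise in 2 of these classes. In Cajal-Retzius-like nuclei these were no low-count filter (1.17; adjusted p = 6.13e-03), all 6 libraries (1.01; 0.0169), marker-gated nuclei (0.99; 1.22e-03) and HDACi-CFC replicate 1 dropped (1.11; 0.0246). In OPC-like nuclei they were all 6 libraries (0.60; 7.22e-03), doublets kept (0.92; 2.37e-03) and HDACi-CFC replicate 2 dropped (0.78; 0.0267).

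**Figure D3:**
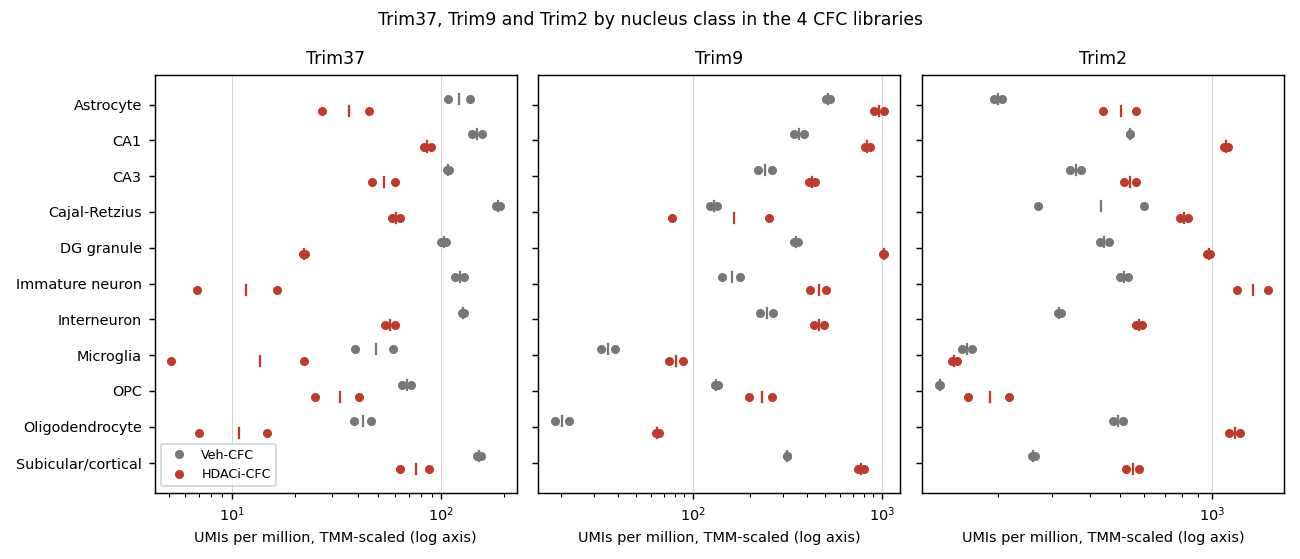
Trim37, Trim9 and Trim2 in 11 nucleus classes (rows) in the 2 Veh-CFC (grey) and 2 HDACi-CFC libraries (red), as TMM-scaled CPM within each class on a log axis, with points for libraries and ticks for group means. The red points of Trim37 lie left of the grey points in each row, and those of Trim9 and Trim2 lie right of them in most rows.

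In CA1-like nuclei 4 members were higher and 9 lower (18.6% and 20.5% of all genes). Beside Trim9 and Trim2, Trim17 rose by 0.81 (26.5 and 25.0, then 40.8 and 48.5 CPM; adjusted p = 7.89e-05), as it did in DG granule-like nuclei, and per nucleus it was not called (0.36; 0.265). The largest falls were those of Trim47 (1.40; adjusted p = 0.0427), Trim27 (1.24; adjusted p = 6.27e-04) and Trim62 (1.20; adjusted p = 0.0181). Trim27 stood at 9.15 and 8.99, then 3.92 and 3.77, while Trim47 rested on 10 and 16 UMIs against 3 and 5 and Trim62 on 21 and 29 against 6 and 12. With any of the 4 libraries left out Trim47 (adjusted p from 0.113 to 0.267) and Trim62 (0.0589 to 0.104) were no longer called. Both could pass the low-count filter on the Veh-CFC libraries alone, so their direction was partly fixed by it. In CA3-like nuclei 4 members were higher and 4 lower (13.8% and 11.9% of all genes). Trim36 rose there by 1.58 from 4 and 6 UMIs to 13 and 16 (adjusted p = 0.0248), a call lost with any of the 4 libraries left out (0.112 to 0.21). With its low Veh-CFC counts it could pass the low-count filter on the HDACi-CFC libraries alone. Trim24 fell by 1.19 (adjusted p = 1.05e-03) and Trim41 by 0.92 (adjusted p = 5.43e-03; 0.077 with DESeq2).

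Among the remaining neurons, interneuron-like nuclei had 5 members higher and 3 lower (16.2% and 12.9% of all genes). Trim44 rose there by 0.57 (122 and 109, then 184 and 159 CPM; adjusted p = 2.02e-03; 0.153 with library-size scaling), and Trim24 and Trim46 fell by 0.55 and 0.47 (adjusted p = 0.0234 and 0.0192). The call of Trim24 was lost without Veh-CFC replicate 1 (0.103) or HDACi-CFC replicate 2 (-0.33; 0.282), and that of Trim46 without Veh-CFC replicate 1 (0.0798), Veh-CFC replicate 2 (0.0853) or HDACi-CFC replicate 2 (0.149). Trim32 (0.47) and Trim35 (0.36) were also higher there and turned sign per nucleus (-0.01 and -0.13). Without 1 library their adjusted p reached 0.153 and 0.182, and Trim35 remained called only without HDACi-CFC replicate 2. Subicular or cortical-like nuclei had 3 higher and 3 lower (11.5% and 8.06% of all genes), with Trim35 up by 0.57 (adjusted p = 3.67e-03) and Trim24 and Trim28 down by 1.14 and 0.86 (adjusted p = 2.01e-03 and 0.0308). These calls were lost for Trim35 without Veh-CFC replicate 2 (0.0742) and with library-size scaling (0.174), for Trim24 without HDACi-CFC replicate 2 (0.069), and for Trim28 without Veh-CFC replicate 1 (0.131) or 2 (0.083) or HDACi-CFC replicate 2 (0.269). Immature neuron-like nuclei had 2 higher and 2 lower (7.88% and 3.93% of all genes), where Trim33 fell by 0.95 (adjusted p = 0.0337; 0.0588 to 0.214 with any of the 4 libraries left out). In Cajal-Retzius-like nuclei 0 members were higher and 1 was lower (9.18% and 5.09% of all genes) of 6 tested. There edgeR gave 2 members an unadjusted p under 0.05.

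In astrocyte-like nuclei 3 members were higher and 4 lower (16.3% and 12.4% of all genes). Trim8, a regulator of cytokine and NF-kB signalling, stood at 26.0 and 26.2 CPM in Veh-CFC and at 72.7 and 59.3 in HDACi-CFC and rose by 1.31 (adjusted p = 2.38e-03). Trim24 fell by 1.64 (36.3 and 36.4, then 13.6 and 10.3; adjusted p = 3.42e-03) and Trim26 by 1.42 (adjusted p = 0.0103). The groups of these 3 genes did not overlap. The call of Trim8 was lost per nucleus (0.82; adjusted p = 0.0661) and with DESeq2 (0.0744), and DESeq2 did not call Trim24 (0.142) or Trim26 (0.226) either. With HDACi-CFC replicate 2 left out Trim24 was not called (adjusted p = 0.0782), and the call of Trim26 without Veh-CFC replicate 2 (-0.77; 0.424) or HDACi-CFC replicate 2 (0.127). In oligodendrocyte-like nuclei 5 were higher and 4 lower (19.6% and 17.4% of all genes). Trim35 stood at 323 and 319, then 768 and 582, and rose by 1.06 (adjusted p = 1.34e-05), while Trim24 and Trim26 fell by 1.47 and 1.29 (adjusted p = 5.88e-04 and 2.03e-03). In OPC-like nuclei 1 was higher and 2 lower (16.5% and 11.6% of all genes), with Trim24 at 79.6 and 105, then 30.4 and 29.8, a fall of 1.62 (adjusted p = 6.83e-04). Trim24 was thus called lower in 8 of the 10 classes in which it was tested, of which DESeq2 did not call the astrocyte-like, interneuron-like (0.247) and subicular or cortical-like falls (0.0878).

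Microglia-like nuclei had 10 members higher and 1 lower of 27 tested, against 20.8% and 18.5% of all genes. Library-size scaling gave 7 and 6, and per-nucleus scaling 3 and 6. Trim30c, a relative of the other Trim30 genes and so of uncertain identity, rested on 5 and 7 UMIs in the vehicle libraries against 19 and 45 after the drug (16.4 and 14.2, then 84.4 and 115 CPM). It rose by 2.74 ± 0.43 (adjusted p = 1.39e-08). Trim30b rose by 2.45 from 2 and 3 UMIs to 8 and 14 (adjusted p = 3.85e-04; 0.11 with DESeq2), and Trim17 by 2.25 from 4 and 7 to 17 and 24 (adjusted p = 2.41e-05). The groups of all 3 were apart, but the counts are small. With so few UMIs in Veh-CFC they could pass the low-count filter on the HDACi-CFC libraries alone, so a fall could hardly be seen. The 10 higher members include these 3. With no such filter the 3 calls stayed. The count of higher members fell to 3 without Veh-CFC replicate 2 and to 6 without HDACi-CFC replicate 2, and it was 4 with doublets kept and 2 with DESeq2. Neuronal transcripts also moved in these nuclei: Snap25 rose by 1.28 and Dcc by 1.00. The summed level of 5 DG granule markers was 1265 and 1246 CPM in the Veh-CFC libraries there, then 1834 and 1785, with 0 or 1 of them at 0 UMIs in each library. In DG granule-like nuclei the same sum was 2554 and 2597, then 4065 and 4135. It was 3330 and 3338, then 4633 and 4983, in oligodendrocyte-like nuclei, so this list is not specific to granule cells. The 6 CA1 markers summed to 155 and 141, then 228 and 203, with none at 0. The 8 interneuron markers summed to 234 and 160, then 202 and 227, with at most 1 at 0. The part of RNA from neurons in the microglia-like results was not tested.

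**Figure D4:**
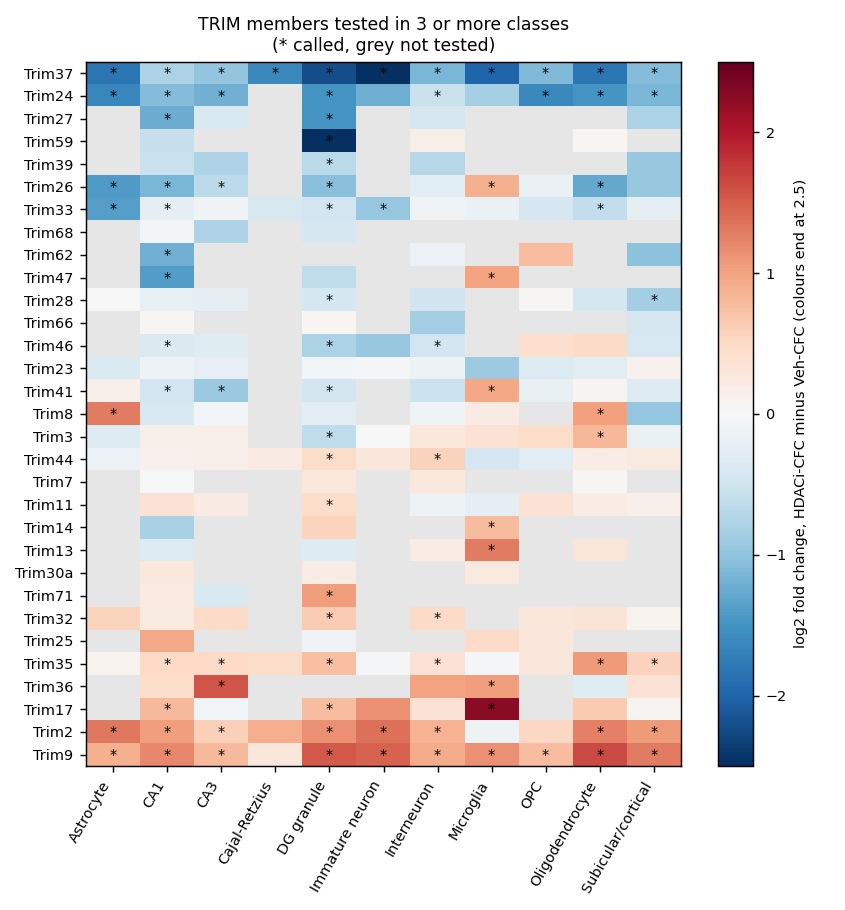
Log2 fold change of HDACi-CFC over Veh-CFC (colour, ending at 2.5 in either direction) for members tested in 3 or more classes, with asterisks for called members and grey for pairs not tested. The Trim37 and Trim24 rows are blue, the Trim9 and Trim2 rows are red in nearly all classes, and Trim26 and Trim41 are red in microglia and mostly blue elsewhere.

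The 4 members called in both directions were Trim3, Trim26, Trim41 and Trim47. Trim3 fell in DG granule-like nuclei and rose in oligodendrocyte-like nuclei, where it stood at 133 and 97.1 CPM in Veh-CFC and at 215 and 194 in HDACi-CFC (0.84; adjusted p = 7.54e-04). Trim26 fell in 5 classes and rose in microglia-like nuclei (121 and 124, then 258 and 205; 0.88; adjusted p = 7.46e-04). Trim41 fell in 3 classes and rose in microglia-like nuclei (0.96; adjusted p = 4.99e-03). Trim47 fell in CA1-like nuclei and rose in microglia-like nuclei (1.00; adjusted p = 1.15e-03). The groups were apart in each of these classes. The microglia-like call of Trim26 and the oligodendrocyte-like call of Trim3 held with each CFC library left out in turn. Per nucleus, however, neither was called (0.40 and 0.33; adjusted p = 0.351 and 0.246), and DESeq2 did not call the microglia-like rise of Trim26 (0.0651). The microglia-like rises of Trim41 and Trim47 were likewise not called per nucleus (0.338 and 0.263) or with DESeq2 (0.242 and 0.111). The microglia-like call of Trim41 was lost without Veh-CFC replicate 2 (0.37; adjusted p = 0.472) or HDACi-CFC replicate 2 (0.77; 0.13), and that of Trim47 without Veh-CFC replicate 2 (0.58; 0.207). Among the falls, those of Trim47 in CA1-like and of Trim26 in CA3-like nuclei (adjusted p from 0.054 to 0.138) were lost with any of the 4 libraries left out. The fall of Trim41 in CA1-like nuclei was lost without Veh-CFC replicate 1 (0.102), Veh-CFC replicate 2 (0.0547) or HDACi-CFC replicate 1 (0.0776), and DESeq2 called none of its 3 falls (0.0641 in DG granule-like, 0.121 in CA1-like and 0.077 in CA3-like nuclei).

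A joint fit tested whether the drug difference in DG granule-like nuclei differed from that in each other class, with the library as a block. Over the 10 classes 51 of 338 member and class pairs differed (edgeR quasi-likelihood test of the interaction, adjusted p under 0.05). The number was 27 when Veh-CFC replicate 2 was dropped and 29 when HDACi-CFC replicate 2 was. In CA1-like nuclei 9 of 36 members differed (16.6% of all genes), in CA3-like 10 of 33 (16% of all genes), in interneuron-like 7 of 34 (13.7%) and in subicular or cortical-like 3 of 32 (8.14%). In astrocyte-like nuclei 6 of 37 differed (10.3% of all genes), in microglia-like 7 of 41 (11.1%), in OPC-like 4 of 32 (8.77%) and in oligodendrocyte-like 5 of 29 (16.3%). In Cajal-Retzius-like (0.754% of all genes) and immature neuron-like nuclei (0.586%) 0 of 32 differed in each, with 1 and 2 members at an unadjusted p under 0.05 by edgeR. These 2 classes held the fewest UMIs.

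The fall of Trim37 was larger in DG granule-like nuclei than in CA1-like, CA3-like, subicular or cortical-like and interneuron-like nuclei. The difference, CA1-like minus DG granule-like, was 1.34 ± 0.10 (adjusted p = 1.32e-11), and it was 1.16 ± 0.15 for CA3-like (adjusted p = 2.58e-12), 1.03 ± 0.18 for subicular or cortical-like (adjusted p = 9.91e-05) and 0.97 ± 0.16 for interneuron-like nuclei (adjusted p = 1.08e-04). For astrocyte-like (0.29 ± 0.31), oligodendrocyte-like (0.58 ± 0.36), microglia-like (0.09 ± 0.63), OPC-like (0.99 ± 0.41, adjusted p = 0.124), Cajal-Retzius-like (0.80 ± 0.59) and immature neuron-like nuclei (-0.89 ± 0.60) the difference was not called. The rise of Trim9 was larger in DG granule-like than in 6 other classes, with differences from -0.88 ± 0.21 for OPC-like to -0.35 ± 0.12 for subicular or cortical-like nuclei. The latter was not called with library-size scaling (adjusted p = 0.311). The rise of Trim2 was larger in DG granule-like than in microglia-like (-1.39 ± 0.24), OPC-like (-0.73 ± 0.22), CA3-like (-0.63 ± 0.07) and interneuron-like nuclei (-0.37 ± 0.11), and the OPC-like and interneuron-like differences were not called with library-size scaling (adjusted p = 0.0718 and 0.152). The fall of Trim59 in DG granule-like nuclei differed from its values in oligodendrocyte-like nuclei, its class of highest level, by 2.73 ± 0.39 (adjusted p = 1.32e-07). There it had a log2 fold change of 0.05.

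In the Context pair there was 1 library of each treatment, so no test was made. Ratios carry a 95% interval from the UMI counts alone, and a member was noted past 2-fold with at least 50 UMIs in the pair. In DG granule-like nuclei 25 members were counted, with 1 past 2-fold higher and 5 past 2-fold lower in HDACi-Context (5.61% and 9.13% of 14377 genes). Trim9 stood at 317 CPM in the library labelled Veh-Context and at 906 in HDACi-Context, a log2 ratio of 1.51 (interval 1.46 to 1.56). Trim37 stood at 80.8 and 25.4, a ratio of -1.67 (-1.85 to -1.49). Trim24 stood at 54.3 and 19.4, a ratio of -1.48 (-1.69 to -1.28). These 3 lay in the direction seen after conditioning. The ratio was -1.15 for Trim26, -1.05 for Trim27 and, on 40 and 17 UMIs, -1.14 for Trim59 (-2.05 to -0.29). Trim2 stood at 447 and 860, a ratio of 0.94 (0.90 to 0.99), just under 2-fold.

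Of the 19 members called in DG granule-like nuclei after conditioning, 18 had the same sign in the Context pair with an interval that left out 0. The exception was Trim39, at 0.02 (-0.34 to 0.39). The same count was not made over all genes called, so 18 of 19 is not shown to be specific to the members. The 2 comparisons share no library. Trim46 was at -0.43 in Context and -0.79 after conditioning, and Trim3 was at -0.31 and -0.64. As a check of the conflicting label, 98.4% of the 1983 genes past 2-fold in CFC with enough UMIs had the same sign in the Context pair. The summed level of 6 microglia markers in DG granule-like nuclei was 384 and 228 CPM in the 2 Context libraries and 98.7 to 124 in the 4 CFC libraries, and its part in these ratios was not tested.

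Outside DG granule-like nuclei, Trim24 was past 2-fold lower in CA1-like (-1.07), CA3-like (-1.73), OPC-like (-1.45) and oligodendrocyte-like nuclei (-2.04), the last from 112 to 21 UMIs. Trim27 was past 2-fold lower in CA1-like (-1.31) and CA3-like nuclei (-1.02), and Trim26 in CA1-like nuclei (-1.59). Trim37 was past it in astrocyte-like (-1.10) and immature neuron-like nuclei (-1.01), as was Trim33 in astrocyte-like nuclei (-1.18). Higher past 2-fold were Trim9 in CA1-like nuclei (1.00), Trim2 in astrocyte-like (1.14), immature neuron-like (1.16) and oligodendrocyte-like nuclei (1.11), and Trim3 in oligodendrocyte-like nuclei (1.30, from 114 to 216 UMIs). In microglia-like nuclei Trim26 (1.24, from 28 to 57 UMIs) and Trim47 (1.54, from 23 to 58) were past it. The higher Trim26 in microglia-like and Trim3 in oligodendrocyte-like nuclei, against lower values in DG granule-like nuclei, thus had the same directions in the Context pair. No test was made there. The median log2 ratio over all genes counted was 0.21 in microglia-like, 0.19 in astrocyte-like, 0.31 in OPC-like and 0.08 in oligodendrocyte-like nuclei, so ratios in these classes are shifted upward.

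**Figure D5:**
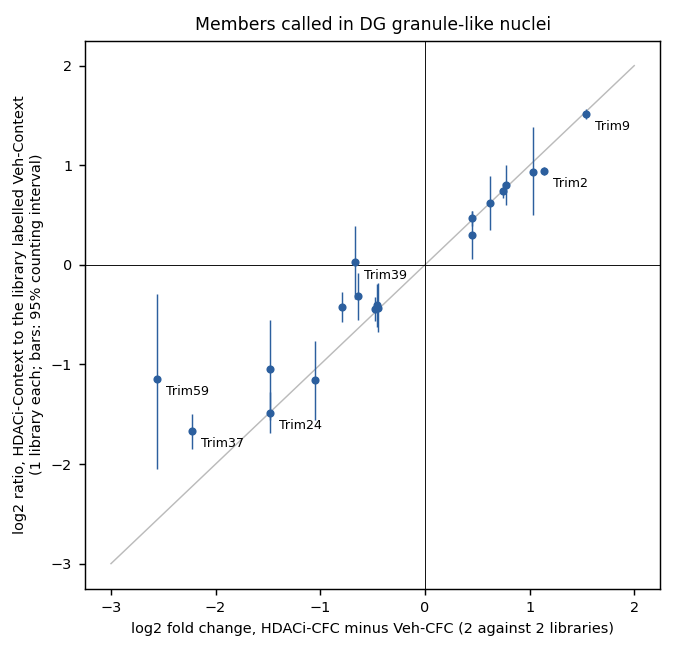
The 19 members called in DG granule-like nuclei, with the log2 fold change after conditioning on the x axis (2 against 2 libraries) and the log2 ratio of the Context pair on the y axis (1 library each, bars of the 95% counting interval), and the line of equal values in grey. Trim9 lies near the line, Trim37 and Trim59 lie above it, and Trim39 is the point at about 0 on the y axis.

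Whether the drug difference itself differed between exposures was tested over all 6 libraries, assuming that the single Context libraries vary like the CFC libraries. The CFC libraries were counted with Cell Ranger 3.0.1 and the Context libraries with 3.0.2, so exposure cannot be told apart from that version. Of 293 member and class pairs 0 were called by edgeR, 17 had an unadjusted p under 0.05, and DESeq2 called 0 of the 254 with an adjusted p. In DG granule-like nuclei 1.07% of 17917 genes were called and 0 of 41 members. The difference for Trim37 there, Context minus CFC, was 0.56 ± 0.17 (unadjusted p = 2.99e-03, adjusted p = 0.149), and it was -0.02 ± 0.11 for Trim9 and -0.19 ± 0.11 for Trim2. In oligodendrocyte-like nuclei the difference was 1.34 ± 0.49 for Trim37 (adjusted p = 0.385) and -1.42 ± 0.43 for Trim9 (adjusted p = 0.176). Without HDACi-CFC replicate 1, Trim25 in CA1-like (-2.59, adjusted p = 0.0433) and Trim59 in oligodendrocyte-like nuclei (0.75, adjusted p = 0.0431) were called, and without HDACi-CFC replicate 2, Trim33 in immature neuron-like nuclei (1.98, adjusted p = 0.0389).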

How the data were processed

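Members and gene lists were chosen with earlier results of these data known. The authors deposited raw UMI counts per gene and nucleus barcode, made with Cell Ranger 3.0.1 (CFC) or 3.0.2 (Context) per the file headers. The genome was mm10, and Seurat 4.0.3 was also used, per the submitters' processing notes. Whether intron reads were counted is not given in the sources used here. Barcodes under 500 genes or over 5% mitochondrial UMIs were dropped, as were 927 doublets found with Scrublet (scanpy 1.11.5, expected rate 0.06). Leiden clustering (leidenalg 0.10.2; 2000 variable genes, 30 components, 20 neighbours, resolution 1.0, seed 0) gave 28 clusters, named from fixed markers. Unnamed clusters (6.57% of nuclei) and classes with under 30 nuclei in a library were left out. UMIs were summed per library and class and tested in R 4.3.3 with edgeR 4.0.16 (TMM, filterByExpr, two-sided quasi-likelihood F test, Benjamini-Hochberg adjustment over all genes of the fit, threshold 0.05). Each SE belongs to a log2 fold change. With 2 against 2 libraries an exact test cannot go below p = 0.333. Each library pools mice, so p-values of the drug comparisons measure the spread between pools and not between mice. The fit draws the spread of each gene toward that of other genes, so small p-values rest largely on this sharing. In the baseline and class-difference fits the library is a block. Their p-values measure how differences between classes vary over libraries. Named were Trim37, Trim9, Trim2, all members called in DG granule-like nuclei, members called in each other class with groups apart (the 3 highest and 3 lowest by the fixed rule, others after their values were seen), the leading member per class at baseline, members past 2-fold in Context, the nearest genes, and the largest changes on each list. A result for 1 listed gene is not reported here. Gene positions are from GENCODE M21 (GRCm38), which held 30934 of the 31053 gene IDs. The fits were tested on simulated data. Alternatives were other scalings, DESeq2 1.42.0, no filter, all 6 libraries, the replicate block, gated nuclei, doublets kept, the largest DG cluster alone, and each CFC library left out.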

Additional observations from a re-analysis of the deposited data

Results flagged for a closer look

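The drug difference of several members differed between DG granule-like nuclei and another class by the test of the difference itself (log2, other class minus DG granule-like). For Trim37 it was 1.34 in CA1-like, 1.16 in CA3-like, 0.97 in interneuron-like and 1.03 in subicular or cortical-like nuclei, each a smaller fall than in DG granule-like nuclei. For Trim9 it was -0.75 in astrocyte-like, -0.40 in CA1-like, -0.80 in CA3-like, -0.71 in interneuron-like, -0.88 in OPC-like and -0.35 in subicular or cortical-like nuclei, each a smaller rise. For Trim2 it was -0.63 in CA3-like, -0.37 in interneuron-like, -1.39 in microglia-like and -0.73 in OPC-like nuclei. Trim41 and Trim26 were called lower in DG granule-like and higher in microglia-like nuclei, and the differences were 1.31 and 1.81. Trim3 was called lower in DG granule-like and higher in oligodendrocyte-like nuclei, with a difference of 1.63. No group had enough libraries for a check of single libraries that stand apart.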

How the results depend on the processing

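Library-size scaling gave 5 members higher in DG granule-like nuclei and per-nucleus scaling 2, in place of 8. In the other classes summed, per-nucleus scaling gave 13 pairs higher and DESeq2 23, in place of 37. For lower pairs, library-size scaling gave 68, per-nucleus scaling 60 and DESeq2 15, in place of 33. The higher members in microglia-like nuclei numbered 3 per nucleus, 2 with DESeq2 and 4 with doublets kept, in place of 10. With each CFC library left out, the counts ran from 7 to 9 higher and 9 to 11 lower in DG granule-like nuclei, from 25 to 33 higher and 21 to 33 lower pairs in the other classes (21 when Veh-CFC replicate 1 or HDACi-CFC replicate 2 was dropped), and from 3 to 10 higher in microglia-like nuclei. The pairs differing from DG granule-like nuclei then numbered 27 to 38, in place of 51 (27 when Veh-CFC replicate 2 and 29 when HDACi-CFC replicate 2 was dropped), and those differing between exposures 0 to 2, in place of 0. These 2 sets of refits, and those of the E2 and partner lists under other scalings, were chosen after seeing the data. With a minimum of 20 UMIs, 3 members were past 2-fold higher in the Context pair in place of 1. Signs turned for Trim11 (-0.0508) and Trim44 (-0.0471) in DG granule-like and Trim32 (-0.0092) and Trim35 (-0.13) in interneuron-like nuclei per nucleus, for Trim9 in Cajal-Retzius-like nuclei with 1 library left out (from -0.56 to 1.11), and for Trim2 in microglia-like nuclei with doublets kept (0.79). The causes were not tested beyond the construction of each setting. Of 1126 alternative values for 93 named member and class pairs, 935 kept direction and side of the threshold, 177 kept direction only, 8 newly passed and 6 turned sign. Between 35 and 39 members differed between classes at baseline, in place of 40, and leaving out a library was not possible there because 1 library per class leaves no residual degrees of freedom.

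With the replicate number as a replicate block, 8 members were higher and 11 lower in DG granule-like nuclei, 39 and 33 pairs in the other classes and 10 members higher in microglia-like nuclei. The block kept the call of 92 of the 93 named pairs and lost that of Trim37 in Cajal-Retzius-like nuclei (adjusted p = 0.114). Same-numbered deviations correlated at 0.249 with only 2 pairs, so the numbers do not establish a pairing. Depth limits the small classes, where members of a few UMIs per library were tested.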
